A study of Mus musculus with 12 samples.

Results

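Keratins and keratin-associated proteins (Krtap genes) were followed in 12 mouse RNA sequencing libraries. All rows of the count table whose symbol was Krt with digits and an optional letter, or Krtap with digits and a hyphenated number, were taken. This gave 164 of 77175 rows, 56 of them keratins and 108 Krtap genes, with 163 symbols because Krt74 stands on 2 identifiers. At least 1 read was counted for 152 members, and 12 members were at 0 in all libraries.

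The libraries came from melanomas grown in NOD-SCID mice, a strain without T and B cells of its own, that received CD8+ T cells of C57BL/6J-OT-I mice after stimulation with anti-CD3/anti-CD28 Dynabeads. Tumors were taken 2 days after the transfer, so no group came from mice without transferred T cells. A melanoma and a T cell fraction were prepared from digested tumors, and each of the 4 groups had 3 libraries. The melanoma fraction was sorted by flow cytometry for GCaMP6s, a calcium sensor that both melanoma lines carry on pLV[Exp]-Puro-EF1A>GCaMP6s, and the T cell fraction was collected with CD8 antibody beads. Both fractions were prepared from tumors of B16-F10, a mouse melanoma line, and of its ovalbumin-expressing derivative B16-F10-OVA, which also carries ovalbumin under the EF1A promoter with a neomycin marker. The groups are called here the B16-F10 melanoma, OVA melanoma, B16-F10 T cell and OVA T cell libraries. Nothing in the labels ties each library to its own mouse. The p-values therefore set a difference between groups against the spread among the 3 libraries of each group, and that spread can be technical.

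Keratins are the intermediate filament proteins of epithelial cells and form filaments as pairs of a type I and a type II chain. Basal epidermal cells make Krt5 and Krt14, differentiating epidermal cells make Krt1 and Krt10, and the hair follicle adds its own sets for the inner root sheath and for the hair shaft. Keratin-associated proteins are small proteins that cross-link the keratin filaments of the hair shaft, and neither melanoma cells nor T cells are known for making hair keratins.

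The start regions of 6 members are shown because these members carry the patterns described below: the inner root sheath keratins Krt71, Krt25 and Krt27, the simple epithelial keratin Krt20, the shaft protein gene Krtap8-1 and the basal keratin Krt5. Each sequence runs from 250 bases before to 50 bases after the gene start in the RefSeq annotation of GRCm38.p6, all on the minus strand, with the letters TATAAA in capitals. The windows are chr15:101743048-101743347 for Krt71, chr11:99322902-99323201 for Krt25, chr11:99351069-99351368 for Krt27, chr11:99438104-99438403 for Krt20, chr16:89487903-89488202 for Krtap8-1 and chr15:101712856-101713155 for Krt5. The reads were counted on another build, GRCm39.
Krt71: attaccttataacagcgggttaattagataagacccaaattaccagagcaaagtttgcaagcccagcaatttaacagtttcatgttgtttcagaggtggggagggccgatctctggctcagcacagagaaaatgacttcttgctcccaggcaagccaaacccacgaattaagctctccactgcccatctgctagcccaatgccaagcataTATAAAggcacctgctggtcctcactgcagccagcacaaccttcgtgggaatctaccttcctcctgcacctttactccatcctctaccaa
Krt25: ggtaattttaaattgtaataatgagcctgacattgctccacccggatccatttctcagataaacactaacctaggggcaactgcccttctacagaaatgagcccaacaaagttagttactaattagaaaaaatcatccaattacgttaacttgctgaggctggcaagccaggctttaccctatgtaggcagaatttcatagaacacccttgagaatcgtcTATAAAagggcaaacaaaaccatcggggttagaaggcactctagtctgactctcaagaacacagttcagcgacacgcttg
Krt27: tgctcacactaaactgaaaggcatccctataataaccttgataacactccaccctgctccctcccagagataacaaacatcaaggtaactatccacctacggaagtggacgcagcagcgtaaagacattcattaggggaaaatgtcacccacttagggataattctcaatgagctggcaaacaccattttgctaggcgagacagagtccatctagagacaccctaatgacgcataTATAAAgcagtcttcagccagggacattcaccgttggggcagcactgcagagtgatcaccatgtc
Krt20: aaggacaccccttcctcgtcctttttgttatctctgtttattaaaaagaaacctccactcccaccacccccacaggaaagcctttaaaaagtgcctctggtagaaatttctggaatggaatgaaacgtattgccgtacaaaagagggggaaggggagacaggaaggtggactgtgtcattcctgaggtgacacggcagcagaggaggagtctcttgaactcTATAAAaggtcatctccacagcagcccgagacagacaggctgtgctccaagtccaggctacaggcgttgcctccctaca
Krtap8-1: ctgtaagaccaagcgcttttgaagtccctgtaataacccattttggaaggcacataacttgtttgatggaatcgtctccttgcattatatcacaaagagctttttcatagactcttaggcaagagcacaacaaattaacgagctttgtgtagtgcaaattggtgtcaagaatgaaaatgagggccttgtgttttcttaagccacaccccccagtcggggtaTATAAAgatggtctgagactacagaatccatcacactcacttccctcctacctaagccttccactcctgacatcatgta
Krt5: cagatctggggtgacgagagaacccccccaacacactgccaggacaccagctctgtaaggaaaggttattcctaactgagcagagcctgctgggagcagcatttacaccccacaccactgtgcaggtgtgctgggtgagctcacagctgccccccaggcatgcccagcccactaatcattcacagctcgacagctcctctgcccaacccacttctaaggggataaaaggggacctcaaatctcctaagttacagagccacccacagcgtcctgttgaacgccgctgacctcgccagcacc

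The letters TATAAA, the core of the TATA box, began 40 bases before the start in Krt71, 30 in Krt25, 15 in Krt27, 29 in Krt20 and 29 in Krtap8-1. They were not in the Krt5 window. Windows were found for 83 of the 163 symbols, 84 windows in all, and 47 of these (56.0%) held TATAAA on the sense strand within the 50 bases before the start, against 2.63% of all 32851 windows. The share was 40.5% for the 37 keratin windows and 68.1% for the 47 Krtap windows. Anywhere in the 300 bases and on both strands, TATAAA was in 70.2% of member windows and 13.6% of all windows. The palindrome GCCNNNGGC, a recognition motif of AP-2 factors, was in 18.9% of keratin windows, 2.13% of Krtap windows and 16.6% of all windows on both strands. The match is a description of the letters in these windows.

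Library totals ran from 15494683 to 33263730 counts. Summed over the 12 melanoma markers, the level was 23441 to 23528 CPM (gene counts scaled to a common library total) in the B16-F10 melanoma libraries, 9993 to 10010 in the OVA melanoma libraries, 242 to 249 in the B16-F10 T cell libraries and 107 to 113 in the OVA T cell libraries, and no marker was at 0 in any group. The 14 T cell markers summed to 6.77 to 7.44 CPM in the B16-F10 melanoma libraries, where 4 of them were at 0. They summed to 248 to 253 CPM in the OVA melanoma libraries and to 1493 to 1515 CPM in the T cell libraries. Fibroblast and endothelial markers, 12 genes each, were highest in the T cell fractions, with endothelial sums of 10700 to 11385.5 CPM there against 4551 to 4625 CPM in the OVA melanoma and 309.6 to 314.8 CPM in the B16-F10 melanoma libraries. So markers of these stromal cells were present beside T cell markers in the T cell libraries. Fibroblast sums were 2442 to 2463 CPM in OVA melanoma and 210 to 219 CPM in B16-F10 melanoma. The 8 adipocyte markers summed to 281 to 292 CPM and to 1.74 to 2.63 CPM in these groups. T cell, fibroblast, endothelial and adipocyte marker sums were thus all higher in OVA than in B16-F10 melanoma.

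Keratin and Krtap RNA was concentrated in a single group. Summed over the 164 members, the OVA melanoma libraries held 152.8, 155.7 and 155.4 CPM (154.7 ± 1.58, mean ± SD, n = 3). The B16-F10 T cell libraries held 41.4, 40.2 and 38.4 CPM (39.99 ± 1.49, n = 3). The OVA T cell libraries held 7.46, 6.39 and 7.00 CPM, and the B16-F10 melanoma libraries held 5.17, 5.90 and 5.86 CPM. All OVA melanoma libraries were above all B16-F10 T cell libraries, and these above the remaining 6 libraries, with no overlap. In such bulk samples, fewer cells of a type and less RNA per cell cannot be told apart.

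The number of different members found followed the same order of groups. Over the 3 libraries of a group, 150 members were detected in OVA melanoma, 107 in B16-F10 T cells, 32 in OVA T cells and 11 in B16-F10 melanoma. Of the 108 Krtap genes, 99, 64, 5 and 2 were detected in these groups. A mean of 1 CPM was reached by 33 members in OVA melanoma, 10 in B16-F10 T cells, 2 in OVA T cells (Krt80 and Krt20) and 1 in B16-F10 melanoma (Krt80). The group mean was highest in OVA melanoma for 140 of the 152 detected members. It was highest in B16-F10 T cells for 9, namely Krt20, Krt222, Krt10, Krt16, Krt78, Krt12, Krt13, Krt84 and Krtap6-1, and in OVA T cells for Krt1, Krt88 and Krtap13-20, and of these only Krt20 and Krt222 reached a mean of 1 CPM. The other members of this list were singled out after their values were seen.

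**Figure D1:**
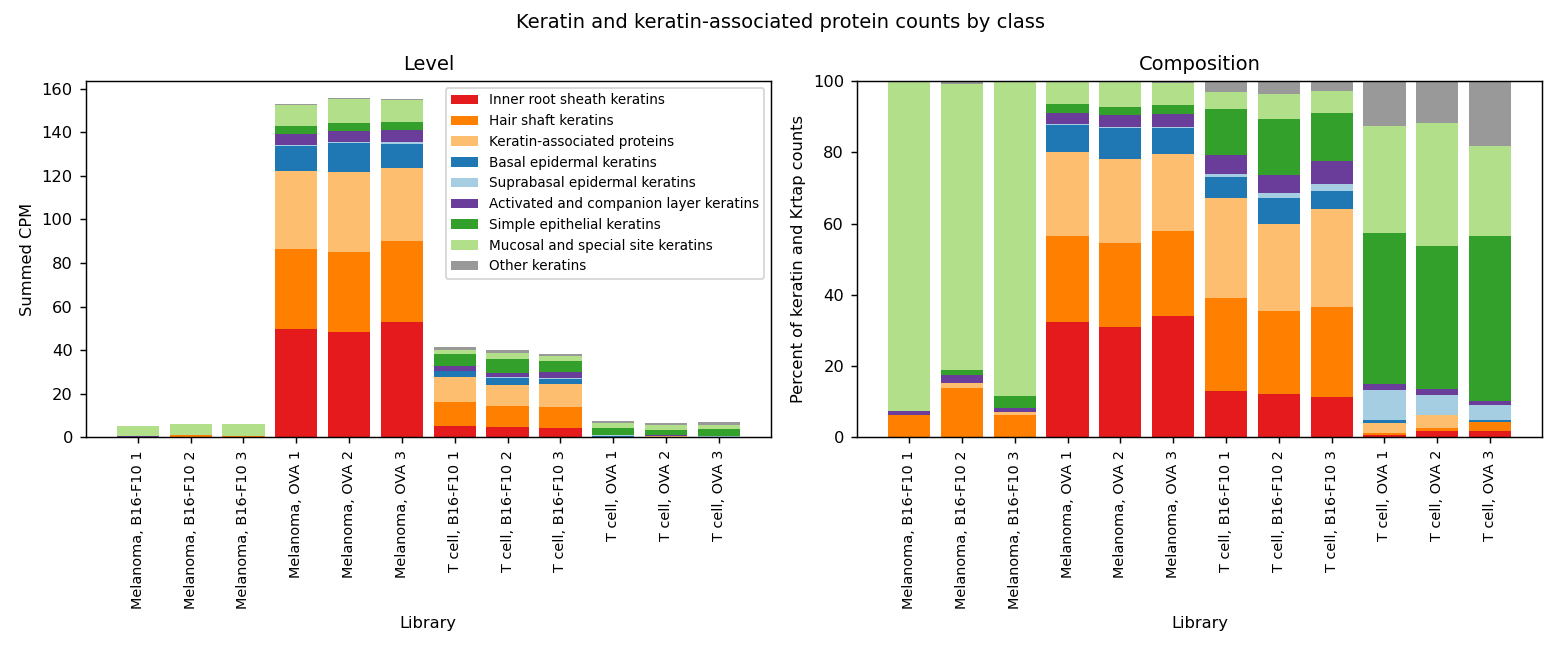
Summed CPM (left) and percent of member counts (right) of 9 classes of keratins and Krtap genes in each of the 12 libraries, as stacked bars. The OVA melanoma bars reach about 4 times the height of the B16-F10 T cell bars, and inner root sheath keratins make up 32.5% of them on average against 12.2%.

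The inner root sheath keratins, 8 symbols that build the sheath around the growing hair, were the most abundant class. They summed to 49.6, 48.4 and 52.8 CPM in OVA melanoma and to 5.39, 4.86 and 4.39 CPM in B16-F10 T cells. In OVA T cells 6 counts were found over the group, and in B16-F10 melanoma none, where 3 counts would be 0.0473 CPM. The 16 hair shaft keratins summed to 36.6, 36.6 and 37.2 CPM in OVA melanoma and to 10.7, 9.38 and 9.68 CPM in B16-F10 T cells. In B16-F10 melanoma 33 counts of this class were found, 31 of them from Krt87. The Krtap genes summed to 36.1, 36.9 and 33.7 CPM in OVA melanoma and to 11.7, 9.89 and 10.6 CPM in B16-F10 T cells.

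Krt71, a type II keratin of the inner root sheath whose mutation causes curly hair, had the highest level of all members. It was at 20.2, 20.05 and 20.9 CPM in OVA melanoma and at 2.07, 1.86 and 1.55 CPM in B16-F10 T cells. In OVA T cells it had 0, 1 and 1 counts, and in B16-F10 melanoma 0 in every library. The OVA melanoma libraries stood at least 431-fold above the B16-F10 melanoma libraries, taking 3 counts over the group as the lowest level that could be seen (edgeR adjusted p = 3.1e-20). Krt71 entered this test only through its OVA melanoma counts, so the call was fixed and the p-value is no further evidence. Its partner Krt25, a type I keratin of the same sheath, was at 12.9, 12.3 and 12.6 CPM in OVA melanoma and at 1.14, 1.30 and 1.16 CPM in B16-F10 T cells. Again the groups did not overlap, and B16-F10 melanoma was at 0.

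The other sheath keratins of the 12 most abundant members had the same order of groups. Krt27, a type I chain, was at 6.55, 5.76 and 7.93 CPM in OVA melanoma and at 1.09, 0.735 and 0.839 CPM in B16-F10 T cells. Krt28, also type I, was at 3.43, 3.63 and 3.94 CPM against 0.311, 0.396 and 0.387 CPM. Krt73, a type II chain of the sheath cuticle, was at 4.39, 3.63 and 4.51 CPM against 0.726, 0.565 and 0.452 CPM. All 3 were at 0 in B16-F10 melanoma and at no more than 1 count a library in OVA T cells. Krt72 and Krt26, which also belong to the sheath cuticle, had 105 and 84 counts over the OVA melanoma libraries, but 0 and 1 over the B16-F10 T cell libraries. For Krt72 this is at least 23.9-fold higher in OVA melanoma, and for Krt26 the ratio was 57.4 with a counting interval of 10.02 to 2292.

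Among hair shaft keratins, Krt85 and Krt35 are known as the first made, in the matrix and the lower cortex. Krt85 was at 6.07, 8.32 and 7.16 CPM in OVA melanoma and at 1.09, 1.53 and 1.03 CPM in B16-F10 T cells. Krt35 was at 4.39, 4.48 and 4.47 CPM against 0.674, 0.622 and 0.387 CPM. Krt33a, a type I keratin of the hair cortex, was at 4.06, 4.16 and 4.91 CPM against 1.24, 1.24 and 0.968 CPM. In each of these the lowest OVA melanoma library was above the highest B16-F10 T cell library. Krt33a and Krt35 were at 0 in the 6 remaining libraries, and Krt85 had 1 count there.

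Krt87, a type II hair keratin, had more than 2 counts in B16-F10 melanoma, unlike the other shaft keratins. It was at 5.47, 4.75 and 5.35 CPM in OVA melanoma and at 1.61, 1.47 and 1.87 CPM in B16-F10 T cells. In B16-F10 melanoma it had 7, 17 and 7 counts, or 0.329, 0.732 and 0.369 CPM, while it was at 0 in OVA T cells. Its OVA melanoma level was 10.8 times that of B16-F10 melanoma (95% counting interval 7.46 to 16.04), and edgeR gave a log2 fold change of 3.57 (SE 0.22, adjusted p = 4.6e-13). Krt87 too entered this test through its OVA melanoma counts, so the p-value is no further evidence. Krt81, Krt83, Krt86 and Krt87 are close copies of each other, as are Krt33a and Krt33b, Krt6a and Krt6b, and members within Krtap families, so the split of reads among them is uncertain.

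The remaining shaft keratins with a mean of at least 1 CPM were lower in level but followed the same order. Krt31 had 94, 47 and 62 counts in OVA melanoma and 14, 9 and 12 in B16-F10 T cells, and Krt33b had 55, 24 and 38 against 12, 4 and 9. Both are type I cortex keratins, and both were at 0 in the 6 other libraries. Krt83 averaged 2.65 ± 0.373 CPM in OVA melanoma against 0.686 ± 0.0916 in B16-F10 T cells, and Krt81 2.29 ± 0.313 against 0.824 ± 0.0692 CPM. Krt86 averaged 1.70 ± 0.152 against 1.14 ± 0.277 CPM, which is the closest pair of means among the shaft keratins of this level. Each of Krt81 and Krt83 had 1 count over the B16-F10 melanoma libraries, where Krt87 had 31.

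Among the Krtap genes, Krtap8-1, a glycine- and tyrosine-rich shaft protein, had the highest level, with 81, 57 and 78 counts in OVA melanoma and 11, 7 and 8 in B16-F10 T cells. Krtap7-1, of the same kind, had 74, 40 and 43 against 8, 11 and 9 counts. Krtap11-1 had 64, 29 and 44 against 15, 9 and 6 counts. Krtap17-1 had 45, 43 and 32 against 7, 2 and 2 counts, and Krtap3-1, a sulfur-rich cortex protein, 48, 25 and 26 against 18, 10 and 20. In CPM, Krtap3-1 averaged 1.27 ± 0.205 in OVA melanoma and 0.9295 ± 0.363 in B16-F10 T cells, and only for it and Krtap3-3 among the Krtap genes of at least 1 CPM did edgeR's test not pass between these groups. All of these genes were at 0 in B16-F10 melanoma and in OVA T cells.

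**Figure D2:**
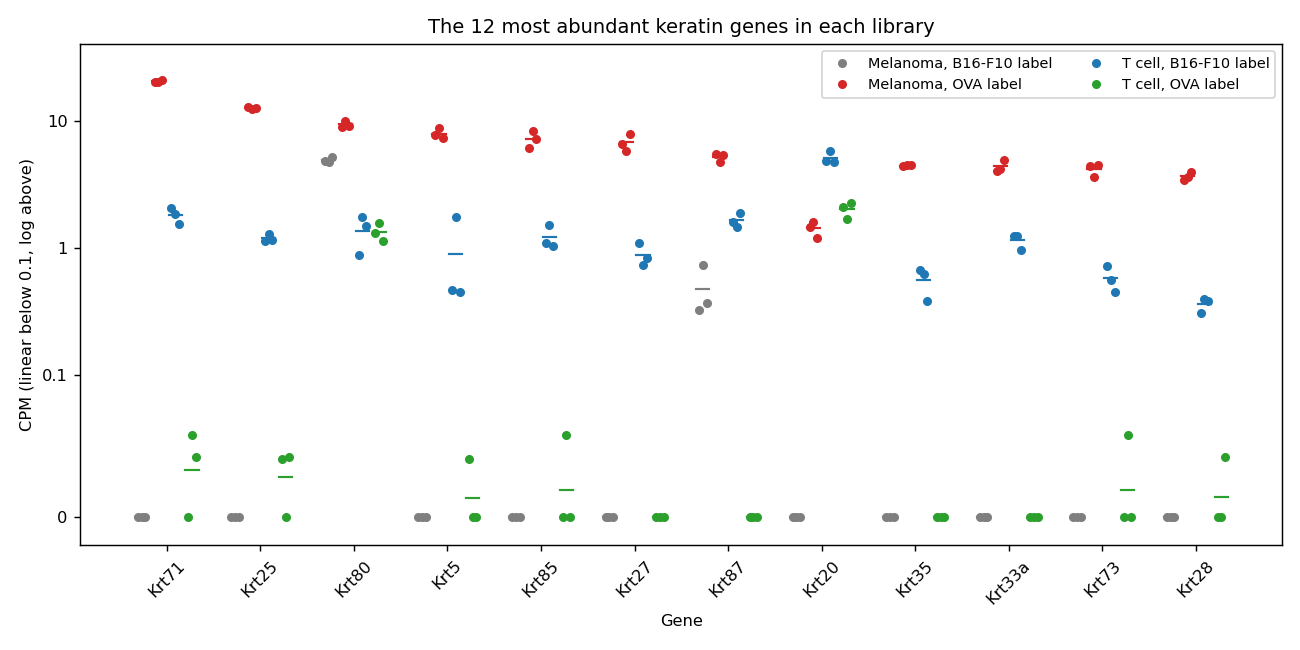
CPM of the 12 most abundant members in each library (points, 3 a group) with the group mean (short line), on an axis that is linear below 0.1 and logarithmic above. OVA melanoma is highest for all but Krt20, Krt80 is present in every library, and most other points of the B16-F10 melanoma and OVA T cell libraries lie at or near 0.

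The 3 basal epidermal keratins summed to 11.5, 13.3 and 11.1 CPM in OVA melanoma, below the sheath, shaft and Krtap sets, which have more members. Gene by gene this order did not hold. Krt5 averaged 7.92 CPM there, near Krt85, the highest shaft keratin, at 7.18 CPM, and above Krtap8-1, the highest Krtap gene, at 2.87 CPM. Krt5, the type II basal chain, was at 7.70, 8.69 and 7.36 CPM in OVA melanoma and at 0.466, 1.75 and 0.452 CPM in B16-F10 T cells, where replicate 2 had 31 counts and the other libraries 9 and 7. It was at 0 in B16-F10 melanoma and had 1 count over the OVA T cell libraries. Its partner Krt14 averaged 2.45 ± 0.338 CPM (n = 3) in OVA melanoma and 0.969 ± 0.373 CPM in B16-F10 T cells. Krt15, a basal keratin also found in the bulge of the follicle, averaged 1.59 ± 0.231 against 0.556 ± 0.0975 CPM. Krt17, known from the outer root sheath and from wounded skin, averaged 3.58 ± 0.270 against 1.09 ± 0.411 CPM.

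Suprabasal epidermal keratins were scarce everywhere. The 4 members of that class summed to 0.481, 0.373 and 0.603 CPM in OVA melanoma, to 0.311, 0.509 and 0.774 CPM in B16-F10 T cells and to 0.618, 0.349 and 0.297 CPM in OVA T cells. These ranges overlapped, and the class was at 0 in B16-F10 melanoma. Krt10, which carries most of these counts and was singled out after its values were seen, had means of 0.301, 0.512 and 0.361 CPM in the same order of groups. Krt1 and Krt2 reached at most 4 counts in any library.

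Per length of the exon model, Krt71 also led the members, at 9.32 ± 0.203 CPM per kilobase in OVA melanoma. Krt85 followed at 7.29 ± 1.14 with a model of only 985 bases, then Krt25 at 6.32 ± 0.152. The models of the other type II shaft keratins had 1842 to 2640 bases. The place of Krt85 in this order, and in that of B16-F10 T cells below, therefore rests on its short model and is uncertain. Krtap8-1, a small shaft protein gene of 574 bases, was at 5.00 ± 0.663, Krt27 at 4.35 ± 0.707 and Krt5 at 3.60 ± 0.315 CPM per kilobase. Krt85 and Krt25 were within 1 SD of Krt85 of each other, and so were Krtap8-1 and Krt27 within 1 SD of either. In B16-F10 T cells Krt20 led, at 2.67 ± 0.306 CPM per kilobase, followed by Krtap3-1 at 1.54 ± 0.601, Krt85 at 1.23 ± 0.274 and Krtap3-3 at 1.06 ± 0.327. Krtap7-1, Krtap8-1 and Krt71 came next, at 0.868 ± 0.177, 0.861 ± 0.156 and 0.837 ± 0.121, and differed from each other by less than their SDs.

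In the melanoma fraction, all 48 members that passed the filter on low counts were higher with the OVA label, where 79.4% of the 17418 genes tested were called, 42.0% higher and 37.4% lower. Most of these 48 were at or near 0 in B16-F10 melanoma and passed only through the OVA libraries, so they had to differ and their number is no further evidence. The same holds in the T cell fraction with the direction reversed. There 15 members were measured, 13 were lower with the OVA label (46.1% of 16536 genes were called, 22.4% lower and 23.7% higher), and Krt80 and Krt222 did not pass the test. Krt80, whose level did not rest on a group at 0, was at 8.90, 9.97 and 9.13 CPM in OVA melanoma and at 4.79, 4.74 and 5.17 CPM in B16-F10 melanoma.

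Krt80, a type II keratin of many epithelia, was the only member above 1 CPM in B16-F10 melanoma. Its OVA effect in the melanoma fraction was a log2 fold change of 1.09 (SE 0.10, edgeR adjusted p = 4.3e-10). Scaled to the melanoma markers in place of all genes, the log2 fold change was 2.15. In the T cell fraction it was at 0.881, 1.75 and 1.48 CPM with the B16-F10 label and at 1.32, 1.57 and 1.15 CPM with the OVA label. These libraries overlapped and edgeR gave a log2 fold change of 0.02 (SE 0.27, adjusted p = 0.95). Over all 12 libraries, 43 of 45 measured members had a lower OVA effect in the T cell than in the melanoma fraction and none a higher one (69.0% of 18562 genes were called, 41.3% lower and 27.7% higher), again mostly members near 0 in some groups. For Krt80 the OVA effects of the fractions differed by -1.07 on the log2 scale (SE 0.26, adjusted p = 0.00073, T cell minus melanoma fraction).

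The fractions were also compared within each label. With the B16-F10 label, 14 of 15 measured members were higher in the T cell fraction (87.7% of 17099 genes were called, 45.4% higher and 42.3% lower), and Krt80 was lower (log2 fold change -1.56, SE 0.20, edgeR adjusted p = 3.8e-08). With the OVA label, 47 of 52 were lower in the T cell fraction and 2 were higher (79.2% of 17947 genes were called, 41.1% lower and 38.2% higher). The 2 higher members were Krt20 and Krt222, and Krt8, Krt18 and Krt79 did not pass the test. Most of these members were at or near 0 in B16-F10 melanoma or in OVA T cells and passed the filter only through the other group, so their calls were fixed and the counts support nothing further. These comparisons also share libraries with those above.

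Krt20, a type I keratin of intestine, bladder and Merkel cells, departed from the follicle pattern. It was at 4.82, 5.82 and 4.78 CPM in B16-F10 T cells, at 2.10, 1.69 and 2.25 CPM in OVA T cells, at 1.47, 1.5996 and 1.21 CPM in OVA melanoma and at 0 in B16-F10 melanoma. The groups did not overlap in this order. Krt20 was lower with the OVA label in the T cell fraction (log2 fold change -1.28, SE 0.16, edgeR adjusted p = 2.4e-07) and higher in the T cell than in the melanoma fraction within the OVA label (0.64, SE 0.20, adjusted p = 0.0058). Krt222 had means of 1.25 ± 0.158 CPM in B16-F10 T cells, 0.939 ± 0.295 in OVA T cells, 0.485 ± 0.0363 in OVA melanoma and 0.0144 ± 0.0249 in B16-F10 melanoma.

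The simple epithelial keratins Krt8 and Krt18, which pair in single-layered epithelia, were also singled out after their values were seen. Krt8 had 23, 10 and 16 counts in OVA melanoma and 14, 8 and 6 in OVA T cells, but 0 in all B16-F10 melanoma and B16-F10 T cell libraries. Krt18 had 16, 13 and 16 counts in OVA melanoma, 9, 4 and 11 in OVA T cells and 3, 1 and 2 in B16-F10 T cells, and 0 in B16-F10 melanoma. Both were thus present with the OVA label in both fractions, while the inner root sheath class had 6 counts over the OVA T cell libraries. Between the OVA fractions neither passed edgeR's test, with log2 fold changes of -0.43 (SE 0.37, adjusted p = 0.29) for Krt8 and -0.55 (SE 0.38, adjusted p = 0.19) for Krt18. A list of 8 mammary luminal markers, which itself holds Krt8 and Krt18, had the same order of groups, with sums of 206.4 to 209.0 CPM in OVA melanoma, 96.9 to 102.5 in OVA T cells, 35.7 to 38.5 in B16-F10 T cells and 0.752 to 1.11 in B16-F10 melanoma. Nearly all of it was Lcn2, a secreted lipocalin that neutrophils and macrophages also make, at 201.6 ± 0.717 CPM in OVA melanoma and 95.4 ± 2.66 in OVA T cells. The milk protein genes Csn2 and Wap were the only 2 genes of the list at 0 in OVA melanoma. In OVA T cells 0 genes of the list were at 0, so both were detected there. The part of such cells in the Krt8 and Krt18 levels was not tested.

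OVA melanoma and B16-F10 T cells, the groups with the most hair keratin RNA, were then set against each other. This comparison was added after the data were seen. Of 43 measured members, 7 did not pass, 34 were higher in OVA melanoma and 2, Krt20 and Krt222, were lower (79.5% of 17116 genes were called, 41.2% higher and 38.3% lower). Over pooled counts, all members together were 3.85 times higher in OVA melanoma (95% counting interval 3.67 to 4.03). Inner root sheath keratins were 10.2 times higher (9.03 to 11.7), hair shaft keratins 3.69 times (3.36 to 4.06), Krtap genes 3.31 times (3.02 to 3.63) and basal keratins 4.84 times (4.02 to 5.87). The interval of the sheath keratins lay above those of the other classes. These intervals cover counting error only, and reads are not independent molecules.

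The ratio also varied from gene to gene. The sheath keratin Krt71 was 11.0 times higher in OVA melanoma (log2 fold change 3.39, SE 0.11, edgeR adjusted p = 1.2e-20) and the sheath keratin Krt25 10.5 times (3.31, SE 0.13). Within the hair shaft set, Krt35 and Krt85, made low in the shaft, were 7.76 times (5.34 to 11.7) and 5.72 times (4.41 to 7.53) higher. The cortex keratins Krt31, Krt83, Krt33a and Krt81 were 3.96, 3.93, 3.75 and 2.86 times higher, and Krt34, a keratin of the upper cortex, 2.10 times (1.45 to 3.10). Krt86, another cortex keratin, was 1.502 times higher and did not pass the test (log2 fold change 0.50, SE 0.25, edgeR adjusted p = 0.064). Without replicate 1 of the B16-F10 T cell libraries Krt86 did pass, with a log2 fold change of 0.69. Krt82 and Krt32, keratins of the shaft cuticle, were 11.9 times (4.90 to 37.5) and 5.23 times (2.86 to 10.5) higher. Krt5 was 8.75 times higher, a log2 fold change of 3.05 that became 3.99 without replicate 2 of the B16-F10 T cell libraries.

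Krtap families spread over a similar range. Krtap5, Krtap10 and Krtap12, families described in the hair cuticle in humans, had 154, 179 and 57 counts in OVA melanoma and 8, 10 and 2 in B16-F10 T cells, ratios of 13.1 (6.51 to 31.0), 12.2 (6.49 to 25.9) and 19.5 (5.15 to 165). Krtap17-1 was 7.45 times higher (4.02 to 15.3) and Krtap8-1 5.67 times (3.77 to 8.88). The Krtap4 and Krtap9 families, known from the cortex, were 3.30 times (2.42 to 4.59) and 3.63 times (2.62 to 5.13) higher. The Krtap1 and Krtap3 families were lowest among the families with over 100 counts, at 1.98 times (1.45 to 2.72) and 1.47 times (1.18 to 1.84). Krtap1-5, Krtap3-1, Krtap3-2 and Krtap3-3 did not pass edgeR's test, while the other 10 of 14 measured Krtap genes were higher in OVA melanoma. All 7 measured sheath keratins and 11 of 12 measured shaft keratins were higher too, with the same limit on members near 0 in B16-F10 T cells.

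**Figure D3:**
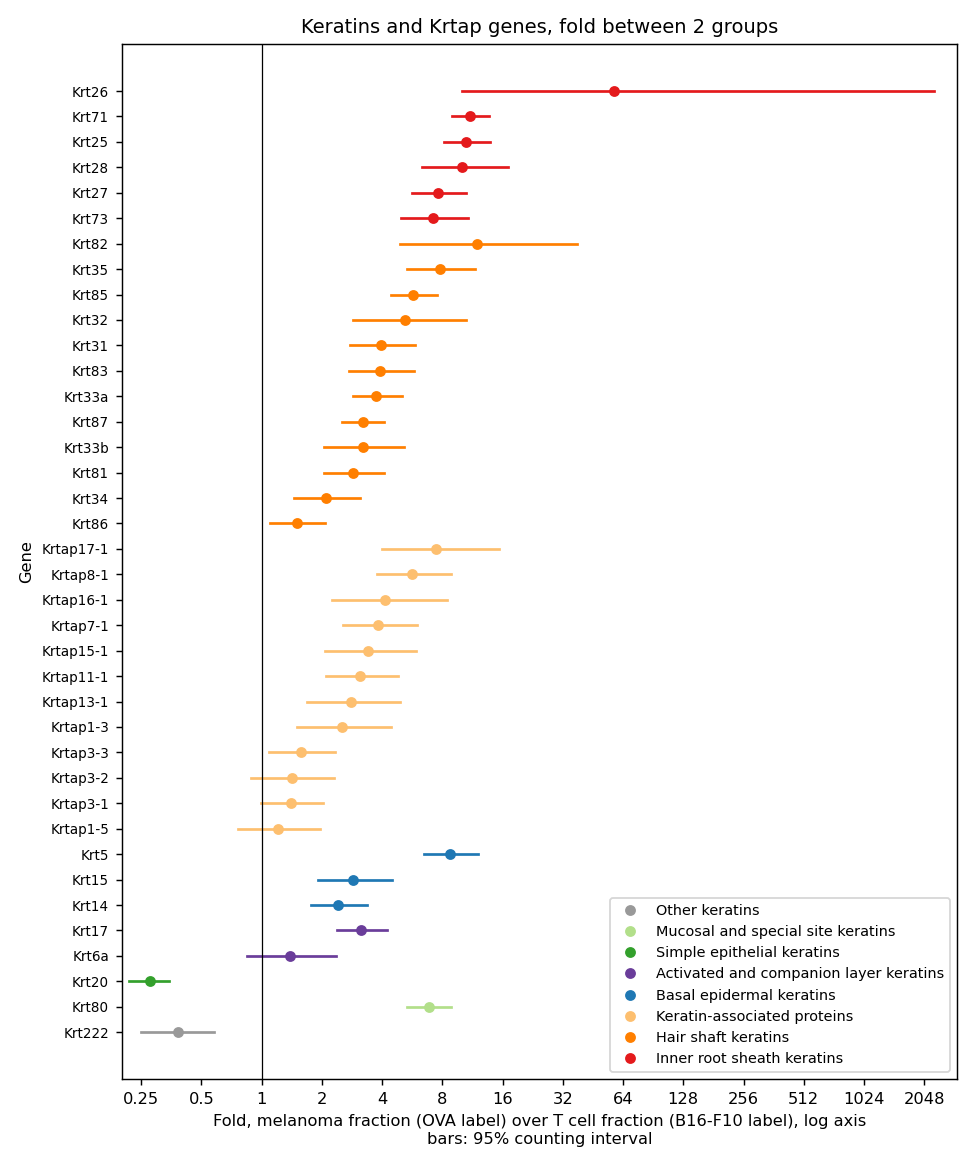
Fold of pooled counts in OVA melanoma over B16-F10 T cells (log axis), by class, with 95% counting intervals as bars. Shown are the 38 members with at least 75 counts in these 6 libraries and with counts in both groups. The sheath keratin Krt72, at 0 in B16-F10 T cells, has no ratio and is not shown. The sheath keratins shown lie between 7.18 and 57.4 and most shaft keratins between 1.502 and 7.76. Krt20 and Krt222 lie below 1.

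As a share of all member counts, sheath keratins made up 32.5, 31.1 and 33.998% in the OVA melanoma libraries and 13.0, 12.1 and 11.4% in the B16-F10 T cell libraries, with no overlap. Hair shaft keratins made up 23.9, 23.5 and 24.0% against 25.9, 23.3 and 25.2%, which overlapped. Krtap genes made up 23.6, 23.7 and 21.7% against 28.2, 24.6 and 27.6%, without overlap. In B16-F10 melanoma, 87.1% of member counts belonged to the class of Krt80, and in OVA T cells the simple epithelial class held 42.9% and the class of Krt80 29.9%.

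Genes outside the keratins that serve the hair follicle were compared in the same way. Of 25 such genes on a list, 16 were at 0 in B16-F10 melanoma. In the melanoma fraction 15 were measured, with 14 higher and 1, Lgr5, lower with the OVA label (79.4% of all genes tested were called, 42.0% higher), and those at 0 in B16-F10 melanoma had to differ. Lgr5 marks follicle stem cells but was at 4.54 ± 0.328 CPM in B16-F10 melanoma. In OVA melanoma against B16-F10 T cells, 12 of 15 were higher and Bambi was lower (79.5% of all genes were called, 41.2% higher). Within the T cell fraction, where 13 of 15 keratin members were lower with the OVA label, 3 of 7 measured follicle genes were lower, namely Tchh, S100a3 and Vsig8, and the other 4, Bambi, Lhx2, Padi3 and Prss53, did not pass the test (46.1% of all genes were called, 22.4% lower). The summed level of the list there was 53.4 to 54.6 CPM with the B16-F10 label and 44.6 to 47.4 CPM with the OVA label. Most of each sum was Bambi, at a mean of 42.3 CPM with the B16-F10 label and 41.7 CPM with the OVA label. Bambi also averaged 23.4 CPM in B16-F10 melanoma. The sums therefore mainly follow Bambi and say little about the other genes of the list. Tchh, trichohyalin of the inner root sheath, was at 14.6, 12.6 and 13.0 CPM in OVA melanoma, 2.90, 2.54 and 2.58 CPM in B16-F10 T cells, 0.206, 0.407 and 0.424 CPM in OVA T cells and 0 in B16-F10 melanoma. S100a3, a calcium-binding protein of the hair cuticle, averaged 7.86, 1.28, 0.184 and 0.0431 CPM in these groups. Hoxc13 and Trp63, regulators of hair keratins and of stratified epithelium, were singled out after their values were seen and averaged 0.689 and 1.91 CPM in OVA melanoma against 0.0576 and 0.184 CPM in B16-F10 T cells. The list that holds Trp63 has 13 keratinocyte regulators, and 10 were measured between these groups. Of these, 8 were higher and 2 lower in OVA melanoma (79.5% of all genes were called, 41.2% higher). Sfn averaged 10.4 CPM in OVA melanoma against 15.2 CPM in B16-F10 T cells, and Klf5 8.63 against 10.3 CPM. Tfap2a was highest in B16-F10 melanoma, at 119 CPM against 41.7 CPM in OVA melanoma.

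Genes of the cornified envelope, the outer shell of dead epidermal cells, were mixed in their levels. Of 34 genes in the table, 12 were measured in the melanoma fraction, 11 higher and 1, Abca12, lower with the OVA label (79.4% of all genes were called, 42.0% higher and 37.4% lower), and 22 were at 0 in B16-F10 melanoma. The late markers Flg and Ivl, singled out after their values were seen, were at or under 0.117 CPM on average in every group. Abca12, a lipid transporter of keratinocytes, was instead highest in B16-F10 melanoma at 59.4 ± 1.31 CPM, and Asprv1, a skin protease, averaged 16.8 ± 0.715 CPM in OVA melanoma but 9.98 ± 1.03 CPM in OVA T cells. Of 21 genes of cell junctions and the basement membrane, 18 were measured in the melanoma fraction, 17 higher and 1, Dst, lower, but 8 of 13 were higher with the OVA label in the T cell fraction (46.1% of all genes were called there, 23.7% higher). Sebaceous gland genes had 3 higher and 3 lower of 6 measured in the melanoma fraction, the lower ones being Fads6, Acsbg1 and Far2.

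**Figure D4:**
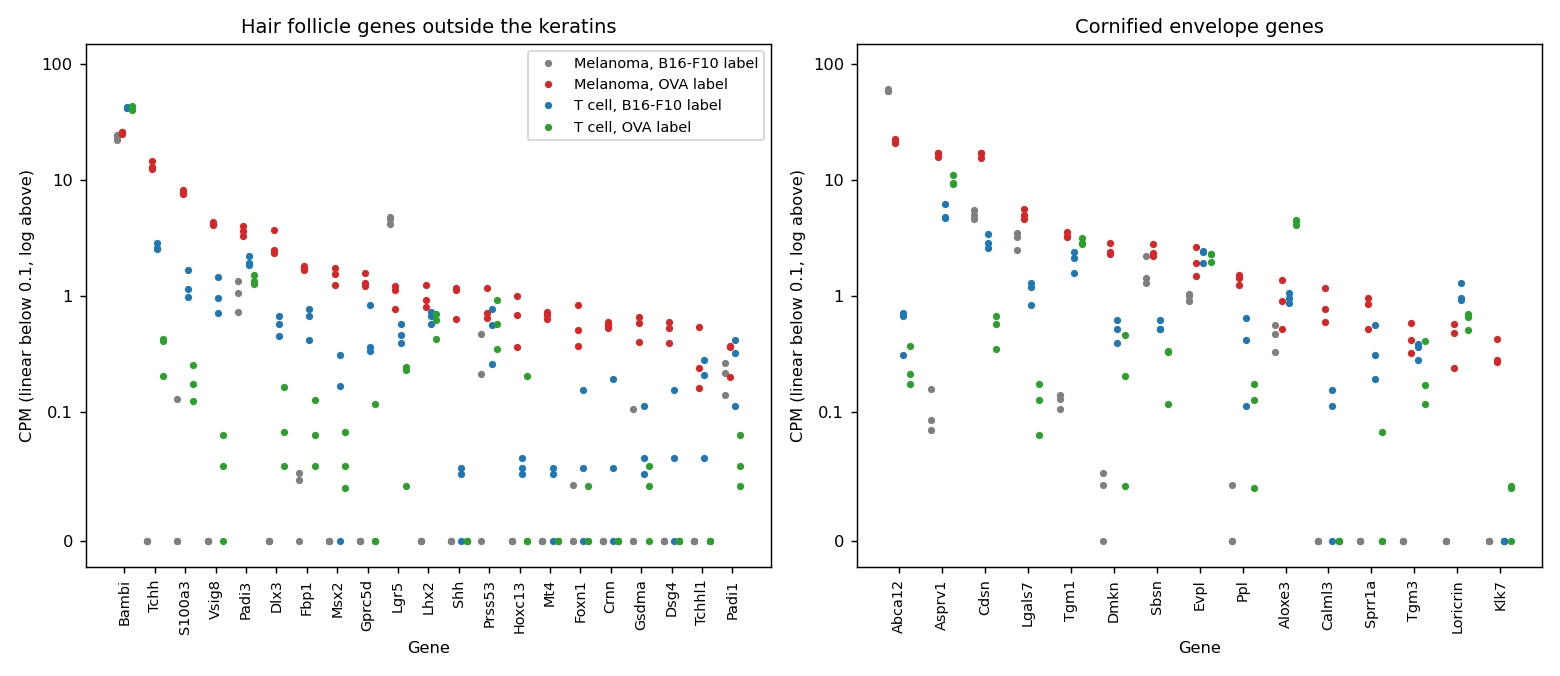
CPM of hair follicle genes outside the keratins (left) and of cornified envelope genes (right) in each library, for genes with a group mean of at least 0.3 CPM, on an axis that is linear below 0.1. OVA melanoma is highest for most follicle genes, while Abca12 and Lgr5 are highest in B16-F10 melanoma, Bambi in the T cell libraries and Aloxe3 in OVA T cells.

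Endothelial and macrophage markers did not share the order of the keratins. Endothelial marker sums were 10700 to 10776 CPM in OVA T cells, where sheath keratins were at 0.0949 ± 0.0468 CPM, and 4551 to 4625 CPM in OVA melanoma, where they were at 50.3 ± 2.30 CPM. Macrophage marker sums, in contrast, were highest in OVA melanoma, at 2715 to 2738 CPM for 12 genes, against 768 to 822 CPM in the T cell libraries and 15.7 to 16.5 CPM in B16-F10 melanoma. The part of these cells in the keratin levels was not tested.

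The genes whose pattern was most like that of the summed epidermal keratins Krt1, Krt2, Krt5, Krt10, Krt14 and Krt15 were sought among 11642 genes. Over the 12 libraries, which form 4 tight groups, Pearson's r on log2 values was 0.991 for mt-Rnr2, 0.990 for Tchh and for Epn1 and Cxcl13, 0.989 for Mmp12, 0.987 for Hnrnpul1 and for Txndc5, 0.984 for F7 and for Pfn1, and 0.981 for Irs2. The list mixes a follicle gene, a mitochondrial ribosomal RNA, a chemokine and a macrophage protease. These values are a description of 12 points in 4 groups, with no test.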

How the data were processed

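Messenger RNA of 12 libraries in 4 groups of 3 was measured by sequencing of poly-A selected RNA. The deposited table holds raw counts per gene, 1 column per library, not normalized by the authors. Per the submitters' processing notes, tools and build were HISAT2 2.0.5, featureCounts 1.6.0 and GRCm39; strand setting and multi-mapping are not given in the sources used here. Counts were divided by library totals to give CPM. All genes kept by filterByExpr were fitted with edgeR 4.0.16 (R 4.3.3, TMM, quasi-likelihood F test) within the groups compared, with Benjamini-Hochberg adjustment over all genes tested and a threshold of 0.05. DESeq2 1.42.0, other filters and scalings, a replicate block and leaving out libraries were alternatives. The fit was tested on simulated data. Ratios of pooled counts carry exact 95% binomial intervals. Groups came from the labels. Library pairs within a group differed by more than sampling noise (chi-square per degree of freedom 1.51 to 1.77). Replicate numbers did not pair the libraries. Exon lengths (163 of 164 members) and start regions came from GRCm38 annotations (GENCODE and RefSeq). The rule for naming took members averaging 1 CPM or more in some group, the 12 highest library by library, and up to 4 genes of each other list; members and genes named outside it, such as Krt8, Krt18, Krt79, Krt10, Krtap1-5, Krtap3-2, Hoxc13, Lhx2 and Vsig8, were chosen after their values were seen. Members and lists were chosen with earlier results of these data known.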

Additional observations from a re-analysis of the deposited data

Results flagged for a closer look

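The effect of the OVA label differed between the melanoma and the T cell fraction for each of the 12 most abundant members, by edgeR's test of the interaction over all 12 libraries. Of 45 members measured in that fit, 43 had a lower OVA effect in the T cell fraction (41.3% of 18562 genes did, and 27.7% had a higher one), and Krt72, at 0 in 3 groups, and Krt8, at 0 in 2, did not pass. The adjusted p was 1.6e-18 for Krt71, 6.1e-17 for Krt25, 0.00073 for Krt80, 5.6e-12 for Krt5, 1.1e-14 for Krt85, 2.2e-13 for Krt27. It was 5.3e-14 for Krt87, 3.5e-12 for Krt20, 3.2e-12 for Krt35, 7.8e-14 for Krt33a, 2.6e-12 for Krt73 and 3.9e-11 for Krt28. All but Krt80 rest on at least 1 group at or near 0. The p-values of these other members are therefore no further evidence, and their fitted sizes, set in part by the prior count, are left out. The direction was higher with the OVA label in 3 of 3 melanoma libraries against all B16-F10 melanoma libraries for all 12.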

How the results depend on the processing

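The replicate block changed no count of members called: 48 higher in the melanoma fraction, 13 lower in the T cell fraction, 14 higher and 1 lower between fractions with the B16-F10 label, 2 higher and 47 lower with the OVA label, 34 higher and 2 lower between OVA melanoma and B16-F10 T cells, and 43 lower for the difference of the OVA effects. Same-numbered libraries had correlations of their deviations of -0.073 to 0.052. Without a filter on low counts these members came to 112 higher in the melanoma fraction, 1 higher and 49 lower in the T cell fraction, 66 higher between fractions with the B16-F10 label, 102 lower with the OVA label, 70 higher and 4 lower between OVA melanoma and B16-F10 T cells, and 93 lower for the difference of the OVA effects, because more members were tested. With at least 1 CPM in 3 libraries fewer were tested, and 30 were higher in the melanoma fraction, 5 lower in the T cell fraction, 6 higher between fractions with the B16-F10 label, and 1 higher and 29 lower with the OVA label. In 1 fit over 12 libraries, 1 was higher and 38 lower in the T cell fraction and 41 were higher between fractions with the B16-F10 label. Leaving out 1 library, where the filter also keeps more genes, gave 49 to 59 higher members in the melanoma fraction, 16 to 23 lower in the T cell fraction (23 whichever OVA T cell library was left out), 17 to 24 higher between fractions with the B16-F10 label (24 whichever B16-F10 melanoma library was left out), 48 to 55 lower with the OVA label, 34 to 43 higher between OVA melanoma and B16-F10 T cells and 45 to 59 lower for the difference. Scaling to melanoma markers left 48 members higher but moved the calls over all genes to 15425 higher and 618 lower, and Krt80 from 1.09 to 2.15. Scaling to keratinocyte genes that are not keratins moved those in the T cell fraction to 819 higher and 12601 lower, with 14 members lower, Krt222 now passing the test at -0.82 and Krt80 turned to -0.47. Krt80 there also turned to -0.23 without replicate 1 of B16-F10 T cells and to -0.08 without replicate 2 of OVA T cells, was 0.25 without replicate 2 of B16-F10 T cells, and passed in none of these. Summed member CPM after TMM were 4.97 in B16-F10 melanoma, 41.8 in B16-F10 T cells and 7.58 in OVA T cells. With only members of at least 10 counts, the sum in OVA melanoma was 152.4 CPM and its hair shaft share 24.1%. Leaving out 1 library gave sums of 154.1 to 155.6 CPM in OVA melanoma, 39.3 to 40.8 in B16-F10 T cells, 6.70 to 7.23 in OVA T cells and 5.51 to 5.88 in B16-F10 melanoma, sheath shares of 31.8 to 33.2% and 11.8 to 12.6%, and shaft shares of 23.7 to 23.9% and 24.3 to 25.6%. Except under the scalings to marker lists, shares over all genes are not given here, so the member counts show only how settings move them. The cause of these moves was not tested beyond the number of genes and samples each setting keeps. Depth limits the members at under 10 counts, and a group at 0 allows up to 0.0390 to 0.0572 CPM.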
